A study of Drosophila melanogaster with 24 samples.

Results

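The testis TraF time course follows adult Drosophila melanogaster testes through the first day after the female form of the splicing regulator tra is switched on in males. It was chosen by its sample labels and holds 6 of the 24 RNA-seq libraries of the series, 2 at each of 0, 12 and 24 h at the restrictive temperature. The comparison described here sets the 2 libraries at 24 h against the 2 at 0 h, with the 2 at 12 h as the middle point. The series profiles ovaries and testes in which the sex-specific splicing of dsx is meant to be turned from one form to the other in adult flies. TraF males were XY and carried the transgene P{w+mc=UAS-Tra.F}20J7 in a y1 w* background, together with the repressor P{w+mc=tubP-GAL80ts}7 over the driver P{w+mc=tubP-GAL4}LL7. Control males were XY, carried the same repressor and driver without the UAS transgene, and went through the same shift, so that both genotypes met the warm temperature and carried GAL4. All flies were raised at 18 °C and aged for 5 days. They were then moved for 0, 12 or 24 h to 30 °C according to the extraction notes, or 29 °C according to the treatment text of the labels. The 2 libraries of a group came from independent dissections of sets of 15 to 20 flies. The driver uses a tubulin promoter, which is active in most cell types of the fly, so expression of the transgene is not limited to 1 cell type of the testis. The clock time of dissection was not given in the sources used here.

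In female flies the protein Tra, with its partner Tra2, directs the pre-mRNA of dsx to the female splice form, whereas males lack functional Tra and make the male form by default. The DSX proteins are transcription factors that maintain the sexual identity of somatic cells, among them the cyst cells and the hub, which form the stem cell niche of the testis. The temperature-sensitive repressor GAL80ts holds GAL4 in check at low temperature and loses this activity in the warm, so that GAL4 can then drive a UAS transgene. Most RNA of an adult testis comes from germ cells, above all from spermatocytes, in which testis-specific transcription complexes (tTAF and tMAC) turn on the genes for spermatid differentiation.

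The total gene count of the 6 TraF libraries ran from 16136939 to 32782474, and replicate libraries correlated at r of 0.988 at 0 h, 0.988 at 12 h and 0.991 at 24 h over log2 CPM of the tested genes. All 12 matched testis germline markers, such as aly, betaTub85D and Mst87F, had counts, and their summed level lay between 12300 and 16500 CPM in the TraF libraries. CPM is the read count of a gene relative to the scaled size of its library. Some libraries stood apart in transcripts of other origin. Annotated ribosomal RNA genes and pseudogenes summed to 2360 and 1180 CPM at 0 h, 4720 and 213 CPM at 12 h, and 107 and 368 CPM at 24 h. TraF 24 h replicate 2 held 501 CPM of Cyp4g1, a P450 of the oenocytes, against 153 CPM in its partner. Among the Control libraries that enter the common estimate of the spread, Control 12 h replicate 1 held 4070 CPM of accessory gland transcripts, against at most 19.9 CPM in any TraF library. The part of these differences in the results below was not tested. In a whole testis, fewer cells of a type and less RNA per cell cannot be told apart.

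The summed transcript of tra rose after the shift, and reads of the transgene and of the endogenous gene were not told apart. Summed over the endogenous gene and the transgene, tra (FBgn0003741, arm 3L) stood at 19.9 and 22.9 CPM in the 2 libraries at 0 h, 242 and 217 CPM at 12 h, and 238 and 285.5 CPM at 24 h. Every library at 12 h and at 24 h lay above both libraries at 0 h, and the 12 h and 24 h values overlapped. The rise from 0 to 24 h was 12.2-fold, or 3.61 on the log2 scale (SE 0.172, n = 2 against 2, adjusted p = 1.24e-05 by the quasi-likelihood test of edgeR after Benjamini-Hochberg correction). In the Control testes tra fell, from 9.59 and 10.9 CPM to 5.38 and 6.44 CPM (log2 fold change -0.80, SE 0.185, adjusted p = 0.0489 by edgeR). An exon of tra overlaps l(3)73Ah on the opposite strand, and this neighbour stood between 47.9 and 56.2 CPM in all 6 TraF libraries.

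From 0 to 24 h, 304 of the 12083 tested genes (2.52%) passed an adjusted p of 0.05 in edgeR, of which 175 rose (1.45%) and 129 fell (1.07%). Without adjustment 2175 genes (18%) had a p under 0.05, and DESeq2 called 637 (5.27%). The median log2 fold change of the genes that rose was 1.23, and 106 of them rose at least 2-fold and 44 at least 4-fold. The median of those that fell was -1.05, with 73 at least 2-fold and 11 at least 4-fold lower. Genes known only by a CG or CR number or an identifier made up 50% of the called genes and 45.7% of the tested genes. The X chromosome held 9.87% of the called and 15.3% of the tested genes, and arm 3R held 27.6% and 23.3%. Per kb of exon, the median level of the called genes in the higher of the compared groups was 7.7 CPM, against 9.87 CPM for the tested genes. The count fell when 1 compared library was left out. It was 22 when TraF 0 h replicate 1 was left out, 36 for TraF 0 h replicate 2, and 26 for either library at 24 h. Each of the 304 kept its direction and an unadjusted p under 0.05 in all 4 of these fits, and 13 passed the adjusted threshold in all 4, namely tra, Amy-p, CG6409, Or94a, Fa2h, lncRNA:CR43414, CG42846, Mal-B1, ppk10, mthl14 and mia among the rises, and mnd and BBS1 among the falls. These fits share all but 1 of the compared libraries with the fit that picked the 304 genes, so they are no independent check of them. The libraries of the other groups, which only inform the spread, also moved the count of called genes. Leaving out Control 0 h replicate 1 gave 162 genes and its partner 163, whereas leaving out Control 12 h replicate 1 gave 560 and its partner 543. In the 4 compared libraries alone 47.5% of the calls were rises, against 57.6% in the fit of 12 libraries.

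**Figure D1:**
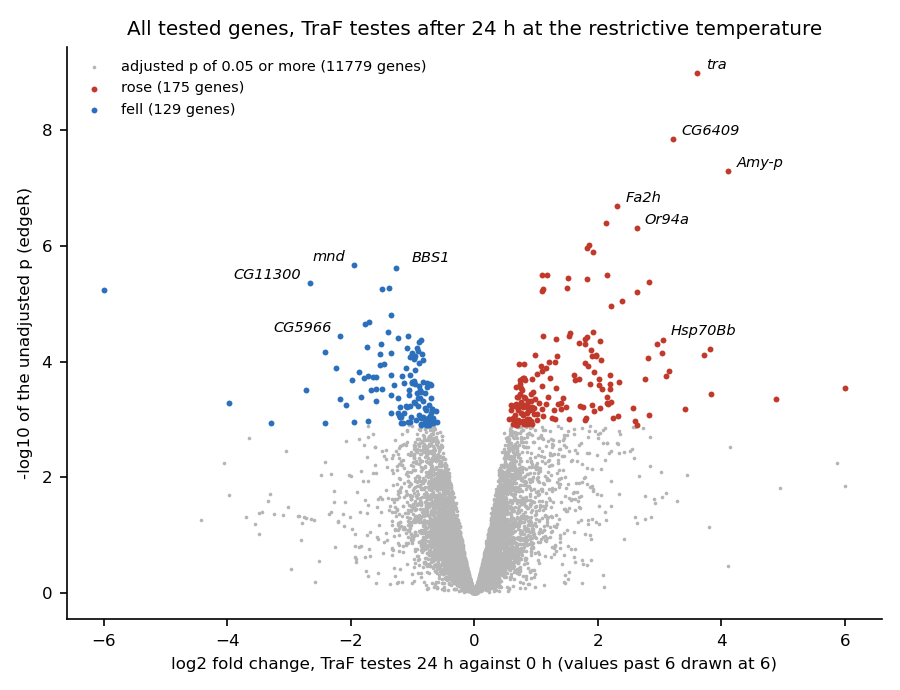
Each point is 1 of the 12083 tested genes, with the log2 fold change of TraF testes at 24 h against 0 h on the x axis and -log10 of the unadjusted edgeR p on the y axis. The 175 genes that rose are red and the 129 that fell are blue; tra, CG6409 and Amy-p have the lowest p.

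The largest rises with a mean of at least 1 CPM included both amylase genes, which encode the starch-digesting enzyme of the fly. Amy-p (arm 2R) went from 1.02 and 1.75 CPM at 0 h to 13.2 and 11.4 CPM at 12 h and 26.4 and 22.6 CPM at 24 h, a change of 4.11 on the log2 scale (SE 0.311, adjusted p = 0.000207 by edgeR). Amy-d went from 0.301 and 1.01 CPM to 5.85 and 6.1 CPM and then 11.8 and 6.53 CPM (3.72, SE 0.659, adjusted p = 0.014 by edgeR). No 24 h library overlapped a 0 h library for either gene. The 2 genes are near-identical neighbours, so that reads may have been split between them and their separate values are uncertain. Mal-B1, which encodes a maltase, rose too, from 4.34 and 3.5 CPM at 0 h to 19.3 and 17.2 CPM at 12 h and 15.5 and 12.9 CPM at 24 h (1.86, SE 0.187, adjusted p = 0.00167 by edgeR). Hex-A, which encodes a hexokinase, fell from 116 and 97.2 CPM to 47.2 and 61.2 CPM (-0.98, SE 0.161, adjusted p = 0.0149 by edgeR). These 4 were the called members among 25 tested genes of sugar and starch metabolism (16%, beside 2.52% over all tested genes), whose median log2 fold change was 0.01 beside -0.01 over all tested genes. The other maltases and the glycolytic enzymes did not pass, among them Ldh, lactate dehydrogenase, at 46.5 and 41 CPM against 28 and 27.1 CPM (-0.67, SE 0.154, adjusted p = 0.0505 by edgeR). Amylase is abundant in the gut. The 19 other matched gut markers summed to 14.3 and 10.5 CPM at 0 h and 8.8 and 9.19 CPM at 24 h, and 3 of them had 0 counts at both times. Whether gut tissue had a part in the rise of the amylases was not tested.

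Further rises also passed in every fit that left out 1 compared library. CG6409 (arm 3L) stood at 78.9 and 72.5 CPM at 0 h, 716 and 568 CPM at 12 h and 773 and 636 CPM at 24 h, and rose 9.31-fold (log2 fold change 3.22, SE 0.199, adjusted p = 8.59e-05 by edgeR). Fa2h, which encodes a fatty acid 2-hydroxylase, went from 3.44 and 4.83 CPM to 14.8 and 15.5 CPM and then 19.5 and 22 CPM (2.31, SE 0.197, adjusted p = 0.000615 by edgeR). Or94a, an odorant receptor gene, went from 0.844 and 0.829 CPM to 5.51 and 6.06 CPM and then 4.46 and 5.94 CPM (2.63, SE 0.254, adjusted p = 0.000986 by edgeR). In each of the 3 genes the libraries at 24 h lay far above those at 0 h, and only in Fa2h did they also lie above both at 12 h. The ion channel gene ppk10 went from 3.5 CPM in each 0 h library to 11.9 and 9.34 CPM at 12 h and 13 and 11.9 CPM at 24 h (1.83). The gene mthl14, which encodes a receptor of the Methuselah-like family, went from 11 and 11.6 CPM to 19.4 and 18.6 CPM and then 25.9 and 25 CPM (1.17).

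The other genes named among the largest rises were mostly transcripts of few counts. Those with a known product were CanA1, a catalytic subunit of the phosphatase calcineurin (0.121 and 0.322 CPM at 0 h, 1.38 and 2.31 CPM at 24 h, log2 fold change 2.96), HLH54F, a transcription factor of visceral muscle precursors (0.362 and 0.276 against 1.8 and 2.7 CPM, 2.81), Cpr100A, a cuticle protein (0.723 and 0.276 against 3.59 and 2.93 CPM, 2.76), and ftz, the pair-rule homeobox gene (0.543 and 0.783 against 3.89 and 4.54 CPM, 2.64). In all 4 the groups did not overlap. The unnamed genes were CG8100 (3.83), CG3690 (3.81), CG13403 (3.42), CG2663 (3.14) and CG16772 (3.10). Of these, CG3690 reached 18.5 and 17.7 CPM at 24 h and CG16772 reached 31.9 and 34.2 CPM, while the other 3 stayed at or below 2.04 CPM.

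**Figure D2:**
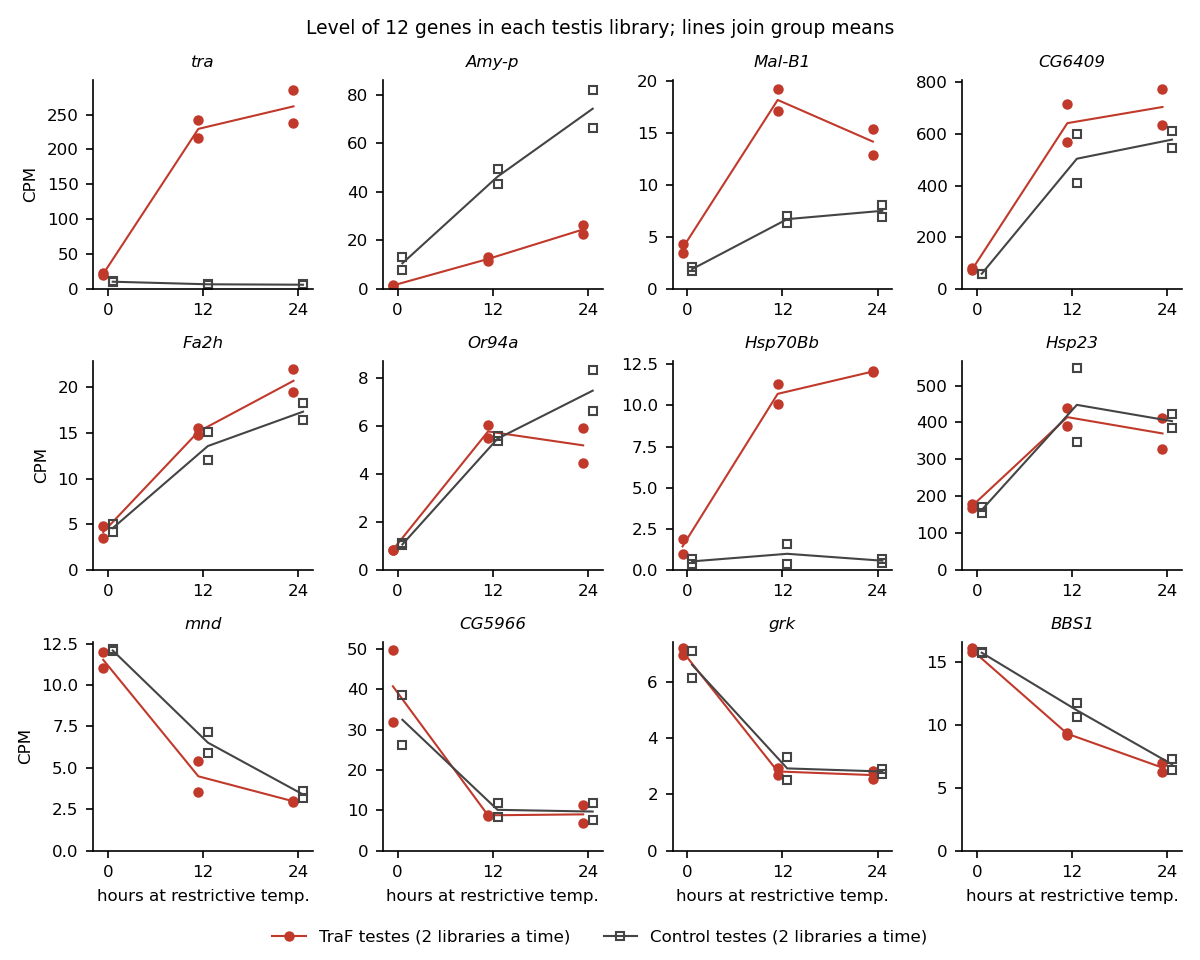
Level in CPM of 12 genes against hours at the restrictive temperature, in each TraF library (red circles) and each Control library (open squares), with lines through the group means of 2 libraries. In tra, Hsp70Bb, Mal-B1 and Amy-p the libraries of the genotypes do not overlap at 0, 12 or 24 h, and in grk and CG5966 they overlap at each time. From 0 to 24 h Mal-B1 changed by 1.86 on the log2 scale in TraF and by 1.98 in Control testes.

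Of 12 tested inducible heat shock genes, 3 rose and none fell (25% called, beside 2.52% over all tested genes), with a median log2 fold change of 0.06. Hsp70Bb, which encodes an Hsp70 chaperone, went from 0.965 and 1.89 CPM at 0 h to 10.1 and 11.3 CPM at 12 h and 12 and 12.1 CPM at 24 h (3.05, SE 0.457, adjusted p = 0.0119 by edgeR). In Control testes it stood between 0.354 and 1.56 CPM in all 6 libraries. The near-identical copies did not pass. Hsp70Ba stood at 0.241 and 0.553 CPM at 0 h and 0.359 and 0.196 CPM at 24 h, and Hsp70Bc at 0.0603 and 1.06 CPM against 0.809 and 0.469 CPM. Reads shared between such copies make the values of each uncertain. UAS vectors commonly carry a basal promoter taken from an Hsp70 gene, the vector of this transgene was not given in the sources used here, and whether transgene reads were counted under Hsp70Bb was not tested. The small heat shock genes Hsp23 (169 and 178 CPM to 411 and 329 CPM, 1.09, adjusted p = 0.0243 by edgeR) and Hsp26 (374 and 375 CPM to 617 and 592 CPM, 0.69, adjusted p = 0.0353 by edgeR) rose, with no overlap between the groups. In Control testes Hsp23 changed by 1.31 (adjusted p = 0.0108 by edgeR) and Hsp26 by 0.62 on the log2 scale. There 3 genes of this list were called higher from 0 to 24 h, where 1.73% of all tested genes were. They were not the same 3 genes, since Hsp70Bb was not called in Control testes (0.06, adjusted p = 0.988 by edgeR). Hsp83, the Hsp90 gene, stood at 2509 and 1931 CPM at 0 h and 2321 and 2121 CPM at 24 h, and none of the 17 constitutive chaperone genes passed.

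The largest fall by fold was that of CG14563, with 83 counts over the 2 libraries at 0 h and 0 counts at 24 h, at least 41.4-fold lower when 3 counts over the group are taken as the floor. CG11300 went from 8.62 and 13.7 CPM to 3.59 and 2.58 CPM at 12 h and 1.59 and 1.96 CPM at 24 h (-2.67, SE 0.311, adjusted p = 0.00299 by edgeR). CG5966 (arm X) went from 49.7 and 31.9 CPM to 8.64 and 8.91 CPM and then 11.3 and 6.77 CPM (-2.17, SE 0.313, adjusted p = 0.0119 by edgeR). In all 3 genes both later times lay below both 0 h libraries. The gene mnd, which encodes an amino acid transporter, stood at 12 and 11.1 CPM at 0 h, 3.55 and 5.43 CPM at 12 h and 3.03 and 2.93 CPM at 24 h (-1.95, SE 0.211, adjusted p = 0.00261 by edgeR). BBS1, a component of the BBSome, a coat complex of cilia, stood at 16.1 and 15.8 CPM, then 9.35 and 9.22 CPM, then 6.23 and 6.96 CPM (-1.27, SE 0.141, adjusted p = 0.00266 by edgeR). These 2 genes passed in every fit that left out 1 of the compared libraries, unlike the 3 before them.

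Among the other large falls were SmydA-6, of the SET and MYND domain family (4.4 and 2.35 CPM at 0 h, 0.659 and 0.587 CPM at 24 h, log2 fold change -2.41), yellow-e, of the yellow gene family (2.71 and 1.61 against 0.509 and 0.274 CPM, -2.41), and Srg3 (10.7 and 10.8 against 3.5 and 1.88 CPM, -1.98). The zinc transporter gene Zip42C.1 (3.38 and 3.45 against 0.928 and 0.939 CPM, -1.87), the Sox transcription factor gene SoxN (3.07 and 1.98 against 0.659 and 0.743 CPM, -1.84), the cuticle protein gene Cpr66D (3.38 and 2.72 against 0.779 and 0.782 CPM, -1.95) and thw (1.87 and 2.4 against 0.509 and 0.743 CPM, -1.78) also fell without overlap between the groups. The remaining genes of this size have no descriptive name. They were CG17283 (-3.30), CG31087 (-2.24), FBgn0085767 (-2.17) and CG32544 (-2.08), each at or below 2.83 CPM at 0 h. The exons of CG32544, BBS1 and, among the rises, Fa2h and mthl14 overlap those of another gene on the opposite strand (CG7326, Acbp4, CG11125 and DIP2). Whether the counts used strand was not stated, so reads of such pairs may not be told apart.

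In the lists of spermatogenesis 2 genes were called. Of the 4 tTAF genes, which encode testis-specific subunits of the transcription factor TFIID, 1 was called (25%, beside 2.52% over all tested genes). This gene, mia, rose from 21.3 and 20.7 CPM at 0 h to 35.3 and 37.8 CPM at 12 h and 44.9 and 45.1 CPM at 24 h (1.10, SE 0.125, adjusted p = 0.0028 by edgeR). It also rose in Control testes (0.85, adjusted p = 0.00949 by edgeR). The other tTAF genes had positive log2 fold changes that did not pass, with sa at 0.42, nht at 0.45 and can at 0.29. Of the 8 tested tMAC genes 1 was called (12.5%, beside 2.52% over all tested genes). The gene wuc rose from 27.4 and 22.7 CPM to 41.3 and 36.5 CPM (0.64, SE 0.142, adjusted p = 0.0458 by edgeR), and the median of the list was 0.13. None of the 14 spermatocyte and meiotic entry genes, 6 sperm chromatin genes, 23 sperm tail genes, 12 cup and comet genes, 12 testis germline markers and 6 Y-linked fertility genes passed, and their medians lay between 0.02 and 0.12. The sperm tail gene dj, for one, stood at 1209 and 1882 CPM at 0 h and 1203 and 1377 CPM at 24 h (-0.26, adjusted p = 0.724 by edgeR).

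Of 17 tested markers of the female germline and the ovary 2 fell (11.8%, beside 2.52% called over all tested genes). The 24 matched members of the list summed to 814 and 1040 CPM at 0 h and 750 and 1010 CPM at 24 h. The gene grk, which encodes the ligand that sets the axes of the egg, stood at 7.17 and 6.95 CPM at 0 h, 2.92 and 2.7 CPM at 12 h and 2.55 and 2.82 CPM at 24 h (-1.40, SE 0.203, adjusted p = 0.0116 by edgeR). An exon of grk overlaps Akap200 on the opposite strand. The egg activation gene gnu went from 1.93 and 1.52 CPM to 0.419 and 0.626 CPM (-1.72, SE 0.393, adjusted p = 0.0471 by edgeR). For both genes the 24 h libraries lay below the 0 h libraries. The median of the list was -0.06.

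Besides tra, none of the 14 tested sex determination genes passed. The gene dsx stood at 6.33 and 5.85 CPM at 0 h, 8.27 and 9.46 CPM at 12 h and 6.05 and 15.8 CPM at 24 h, and changed by 0.84 on the log2 scale (SE 0.369, adjusted p = 0.266 by edgeR), which became -0.0065 without TraF 24 h replicate 2. Counts per gene do not separate the male and female splice forms of dsx. Its cofactor gene tra2 stood at 96.2 and 80.9 CPM at 0 h and 139 and 125 CPM at 24 h (0.58, SE 0.152, adjusted p = 0.0724 by edgeR), Sxl at 17.4 and 16.1 CPM against 13.6 and 20.7 CPM, and fru at 70.4 and 70 CPM against 55 and 59 CPM (-0.30, adjusted p = 0.383 by edgeR). The marker gene w, carried by the transgenes, stood at 48.8 and 60.4 CPM against 57.1 and 69.4 CPM.

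Direct targets of DSX gave no called gene among the 6 tested. The yolk protein genes Yp1, Yp2 and Yp3 are switched on by the female form of DSX in the fat body. In these testes Yp1 stood at 0.301 and 0.0921 CPM at 0 h and 0.269 and 1.45 CPM at 24 h, Yp2 at 0.241 and 0.23 CPM against 0.269 and 0.821 CPM, and neither reached the level needed for a test. Yp3 stood at 10.1 and 10.4 CPM at 0 h and 12.4 and 12.1 CPM at 24 h (0.26, SE 0.167, adjusted p = 0.454 by edgeR). Fad2, a desaturase gene of female oenocytes that DSX regulates, stood at 3.8 and 4.47 CPM at 0 h, 2.92 and 0.0782 CPM at 12 h and 0.0898 and 0.43 CPM at 24 h (unadjusted p = 0.00565, adjusted p = 0.0944 by edgeR). In the same libraries the oenocyte gene Cyp4g1 stood at 116 and 94.9 CPM, 62.1 and 0.821 CPM, and 153 and 501 CPM.

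Genes of the somatic niche were not called. Of 15 hub and cyst stem cell genes none passed (median -0.24, 4 above 0). The cyst cell gene tj stood at 4.64 and 3.78 CPM at 0 h and 7.25 and 5.91 CPM at 24 h (0.65, adjusted p = 0.242 by edgeR), the cadherin gene CadN at 47.2 and 52 CPM against 38 and 37 CPM (-0.40, adjusted p = 0.129 by edgeR), and so at 24.1 and 28.3 CPM against 18.5 and 19.7 CPM (-0.46, adjusted p = 0.122 by edgeR). None of 8 tested female somatic gonad genes (median -0.26), 13 germline stem cell and spermatogonia genes (-0.16), 17 EGFR signalling genes (-0.25), 12 JAK/STAT signalling genes (-0.16) and 12 Hedgehog signalling genes (-0.11) passed. The female somatic list summed to 41.5 and 34.5 CPM at 0 h and 33.5 and 34.3 CPM at 24 h.

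**Figure D3:**
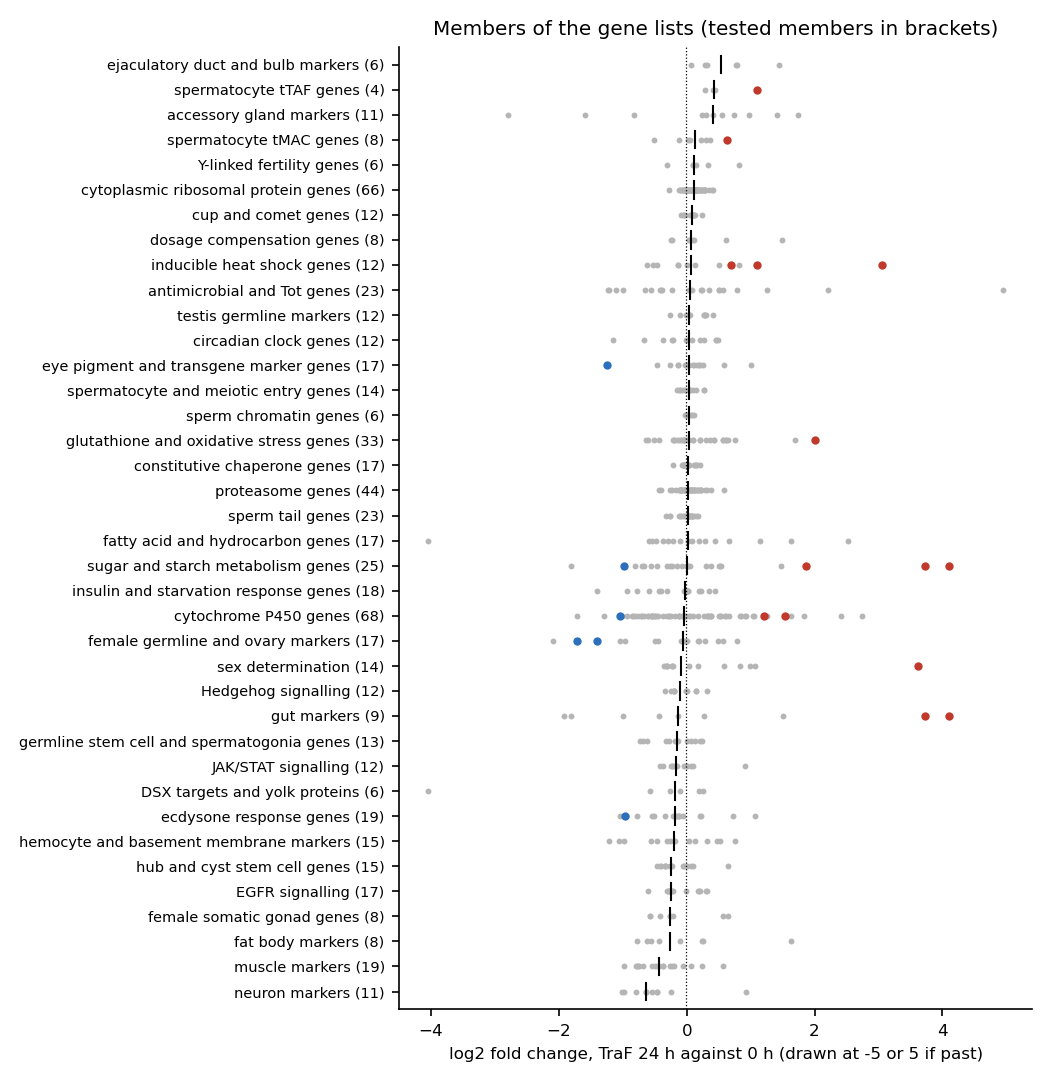
Log2 fold change of TraF testes at 24 h against 0 h for the tested members of each gene list. Grey points did not pass, red points rose, blue points fell, black bars are list medians and the dotted line is the median of all tested genes. Called members occur in 11 of the 38 lists.

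Of the remaining lists with a called member, that of the cytochrome P450 genes had 3 among 68 tested (4.41%, beside 2.52% over all tested genes). The gene shd, given below, was not in this list. Cyp6d2 rose from 5.43 and 6.68 CPM to 12.3 and 15.7 CPM (1.20, adjusted p = 0.0158 by edgeR) and Cyp304a1 fell from 3.44 and 4.28 CPM to 2.01 and 1.72 CPM (-1.05, adjusted p = 0.0476 by edgeR). Cyp6a14 had another course, at 1.02 and 1.1 CPM at 0 h, 11.7 and 12.5 CPM at 12 h and 2.85 and 3.36 CPM at 24 h (1.53 at 24 h, SE 0.346, adjusted p = 0.0453 by edgeR), so that its highest values were at the middle point. GstE8, a glutathione S-transferase gene, rose from 1.69 and 1.89 CPM to 7.94 and 6.53 CPM (2.01, adjusted p = 0.0233 by edgeR). It was the only called gene among 33 tested genes of glutathione and oxidative stress (3.03%, beside 2.52% over all tested genes). Of 19 tested ecdysone response genes only shd was called (5.26%, beside 2.52% over all tested genes). This gene encodes the enzyme that makes the active hormone 20-hydroxyecdysone. It fell from 17.2 and 17.7 CPM to 9.55 and 8.41 CPM (-0.96, SE 0.156, adjusted p = 0.014 by edgeR). Of 17 eye pigment and transgene marker genes only ry, the xanthine dehydrogenase gene, was called (5.88%, beside 2.52% over all tested genes). It fell from 15.1 and 11.6 CPM to 6.83 and 4.38 CPM (-1.24, SE 0.247, adjusted p = 0.0306 by edgeR).

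No member passed in 27 of the 38 lists. Beside those already given, these were the circadian clock genes (12 tested, median 0.04), antimicrobial and Tot genes (23, 0.05), insulin and starvation response genes (18, -0.02), fatty acid and hydrocarbon genes (17, 0.02), proteasome genes (44, 0.02) and dosage compensation genes (8, 0.06). The cytoplasmic ribosomal protein genes had positive values in 53 of 66 members, with a median of 0.11 and a largest value of 0.42, and none had an unadjusted p under 0.05. In the clock list Pdfr, the receptor gene of the neuropeptide PDF, stood at 8.08 and 6.36 CPM at 0 h and 3.26 and 3.21 CPM at 24 h (-1.15, adjusted p = 0.089 by edgeR). The dosage compensation RNA gene lncRNA:roX2 stood at 1.21 and 1.15 CPM against 3.65 and 2.97 CPM (1.49, adjusted p = 0.0712 by edgeR).

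Of the marker lists of other tissues, only the gut list and the list of the female germline and ovary had called members. Neuron markers had a median log2 fold change of -0.63, beside -0.28 in Control testes, with 1 of 11 above 0. Of the 11, 7 had an unadjusted p under 0.05 in edgeR, as did 18% of all tested genes. Among the 7 was brp, a protein of the presynaptic active zone, at 43.7 and 47.7 CPM at 0 h and 19.2 and 27.2 CPM at 24 h. Muscle markers had a median of -0.43, beside -0.11 in Control testes, with 3 of 19 above 0. The summed muscle level was 2480 and 2950 CPM at 0 h and 1590 and 2420 CPM at 24 h, and the summed neuron level was 152 and 147 CPM against 123 and 129 CPM. Hemocyte and basement membrane markers summed to 385 and 371 CPM against 257 and 329 CPM (median -0.20), accessory gland markers to 13.8 and 6.63 CPM against 19.9 and 14.5 CPM, and ejaculatory duct and bulb markers to 37.5 and 33.8 CPM against 45.9 and 36.7 CPM. Fat body markers other than Cyp4g1 summed to 157 and 137 CPM at 0 h and 129 and 140 CPM at 24 h, with a median for the whole list of -0.27. In the gut list 9 members were tested, of which both amylases rose (22.2%, beside 2.52% over all tested genes) and the median was -0.13. The amylases are the same genes that were counted in the sugar and starch list. The part of these shifts in the called genes was not tested.

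At the middle point fewer genes passed. From 0 to 12 h, 82 of 12083 genes were called (0.679%), 40 higher (0.331%) and 42 lower (0.348%), and 1508 had an unadjusted p under 0.05. Leaving out any 1 of the 4 TraF libraries at 0 and 12 h gave 4 to 10 higher and 0 to 7 lower genes. For the 175 genes that rose by 24 h, the median log2 fold change was 0.85 at 12 h beside 1.23 at 24 h, and for the 129 that fell it was -0.87 beside -1.05. Both comparisons use the same 0 h libraries, so the values at 12 h and at 24 h are not independent. The mean of the 12 h libraries lay between the means at 0 and 24 h for 263 of the 304 genes, at or past the 24 h mean for 39, and on the other side of the 0 h mean for 2. Cyp6a14 had both 12 h libraries far above those at 0 and 24 h, although its fall from 12 to 24 h did not pass (unadjusted p = 4.44e-05, adjusted p = 0.268 by edgeR). CG16772 had its highest values at 24 h, at 2.59 and 5.02 CPM at 0 h, 11.5 and 10.7 CPM at 12 h and 31.9 and 34.2 CPM at 24 h.

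**Figure D4:**
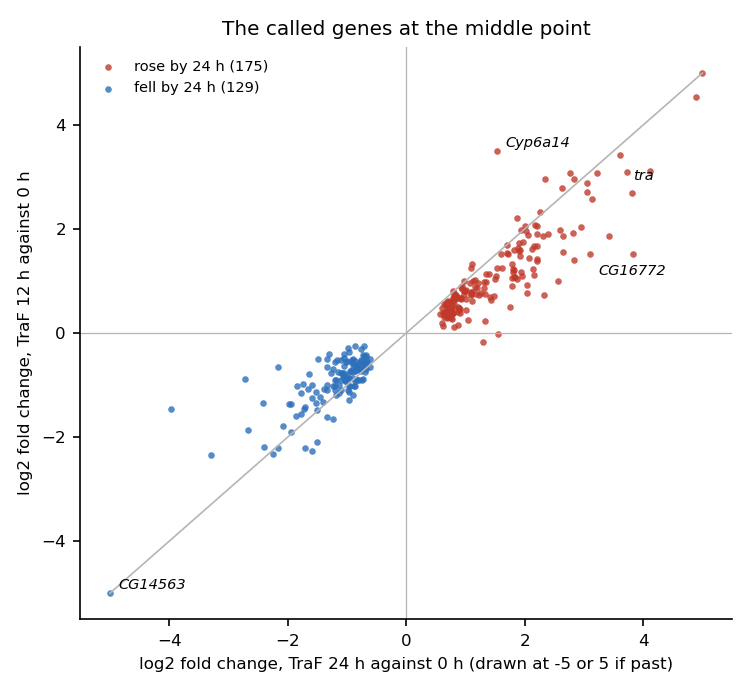
Log2 fold change at 12 h against 0 h (y axis) beside that at 24 h against 0 h (x axis) for the 304 genes called at 24 h, red for rises and blue for falls. For 263 genes the 12 h mean lies between the means at 0 and 24 h, and Cyp6a14 lies well above the diagonal; both axes share the 0 h libraries.

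Between 12 and 24 h no gene passed in edgeR (0 of 12083, 0%). The lowest adjusted p was 0.268, 440 genes (3.64%) had an unadjusted p under 0.05, and DESeq2 called 4 higher and 2 lower genes. By p, the first genes with higher values at 24 h were CG15784, CG10508, FBgn0040813, nebu and TwdlT, a Tweedle cuticle protein gene. CG15784 stood at 25.2 and 20.3 CPM at 0 h, 22.8 and 22.3 CPM at 12 h and 55.4 and 77.3 CPM at 24 h, and was called between 0 and 24 h (1.55, SE 0.223, adjusted p = 0.0116 by edgeR). The first genes with lower values were Cyp6a14, Cpr66Cb, Him, Obp56c and Acbp6. Cpr66Cb, another cuticle protein gene, stood at 23.8 and 30.7 CPM at 0 h, 38.5 and 35 CPM at 12 h and 12.1 and 13.4 CPM at 24 h, and Him, an inhibitor of the muscle factor Mef2, at 17.2 and 18 CPM, then 16.4 and 12.4 CPM, then 9.4 and 8.45 CPM. In each of these 3 genes the 2 libraries at 24 h stood clear of the 2 at 12 h.

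The same interval in Control testes, which share no library with the TraF comparison, gave 325 calls among the 12083 genes (2.69%), 209 higher (1.73%) and 116 lower (0.96%). Leaving out any 1 of the 4 compared Control libraries left 21 to 88 higher and 3 to 28 lower genes. Both comparisons took the spread of each gene from the same fit of 12 libraries, so their calls are not fully independent. The Control libraries fitted alone gave 33 higher and 9 lower genes. In the fit of 12 libraries, 160 of the genes called in TraF testes were also called in Control testes, which is 52.6% of the TraF calls and 49.2% of the Control calls, and 159 of these had the same direction. The exception was tra. Of all 304 TraF calls, 298 had the same sign in Control testes, and 273 of them also had an unadjusted p under 0.05 there by edgeR. Over all tested genes, 1983 (16.4%) had an unadjusted p under 0.05 in Control testes, in either direction. The log2 fold changes of the 2 genotypes correlated at r of 0.45 over all tested genes. The genes that rose in TraF testes had a median log2 fold change of 1.23 in TraF and 1.02 in Control testes, and those that fell -1.05 and -0.86. Chosen the other way round, the genes that rose in Control testes had medians of 1.62 in Control and 1.15 in TraF testes, and those that fell -0.93 and -0.79.

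The named genes differed in how close their changes were in the 2 genotypes. CG6409 went from 58.4 CPM in each Control library at 0 h to 546 and 610 CPM at 24 h (log2 fold change 3.31 beside 3.22 in TraF testes), Fa2h from 4.99 and 4.14 CPM to 16.4 and 18.3 CPM (1.92 beside 2.31), Or94a from 1.1 and 1.02 CPM to 6.62 and 8.36 CPM (2.81 beside 2.63) and BBS1 from 15.8 and 15.7 CPM to 7.28 and 6.44 CPM (-1.19 beside -1.27). The gene mia went from 25.4 and 23.2 CPM to 43.2 and 44.2 CPM (0.85 beside 1.10) and grk from 7.07 and 6.11 CPM to 2.9 and 2.71 CPM (-1.23 beside -1.40). Amy-p was higher in Control testes at every time, at 7.78 and 13.3 CPM at 0 h and 66.4 and 82 CPM at 24 h (2.81 beside 4.11, unadjusted p of the difference = 0.00752 by edgeR). Hex-A stood at 58.3 and 65 CPM at 0 h and 53.7 and 54.7 CPM at 24 h in Control testes (-0.19 beside -0.98, unadjusted p of the difference = 0.00532 by edgeR). CG11300 went from 10.3 and 17.6 CPM to 5.31 and 4.97 CPM (-1.44 beside -2.67, unadjusted p of the difference = 0.0147 by edgeR). Of the 304 TraF calls, 32 (10.5%) had an unadjusted p of the difference under 0.05 in edgeR, beside 3.11% of all tested genes. The TraF change that picked the 304 genes is itself a part of this difference. A higher share among them therefore follows in part from the choice and cannot be read as a genotype effect.

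The test of the difference between the 2 changes (TraF minus Control) called 1 of 12083 genes (0.00828%), which was tra, with a difference of 4.41 in log2 fold change (SE 0.252, adjusted p = 4.52e-05 by edgeR). The next adjusted p was 0.269. Without adjustment 376 genes (3.11%) had a p under 0.05, and DESeq2 called 3 genes, all with a higher change in TraF testes. Among the genes with the lowest p, lncRNA:CR43414 stood at 2.53 and 3.08 CPM at 0 h and 12.2 and 12.4 CPM at 24 h in TraF testes and at 39.4 and 40.4 CPM against 46.9 and 60.4 CPM in Control testes (difference 1.70, unadjusted p = 4.45e-05 by edgeR). Hsp70Bb had a difference of 2.99 (unadjusted p = 0.00281 by edgeR). CG43134 had 0 counts in the Control libraries at 24 h and stood at 0.121 and 0.138 CPM at 0 h and 1.11 and 0.547 CPM at 24 h in TraF testes (unadjusted p = 0.000442 by edgeR). Ir7c, an ionotropic receptor gene, had 3 counts at 0 h and 24 at 24 h in TraF testes, a ratio of 5.34 per library size (95% counting interval 1.62 to 27.7), and stood between 9.56 and 13 CPM in the Control libraries.

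Of the genes with the lower change in TraF testes, the first by p were ple, Mmp2, dan, CG31886 and CG4629. The tyrosine hydroxylase gene ple stood at 32.6 and 20.9 CPM at 0 h and 50.4 and 51.3 CPM at 24 h in TraF testes and at 10.3 and 15.6 CPM against 62.9 and 62.7 CPM in Control testes (difference -1.35, unadjusted p = 0.0016 by edgeR). Mmp2, a matrix metalloproteinase gene, stood at 11.2 and 8.56 CPM against 8.8 CPM in each library at 24 h in TraF testes and at 4.76 and 5.97 CPM against 13.9 and 10.3 CPM in Control testes (difference -1.34, unadjusted p = 0.00162 by edgeR). CG4629 was called in TraF testes, where it fell from 23.4 and 18.7 CPM to 12.5 and 11.2 CPM (-0.82, adjusted p = 0.0226 by edgeR), and stood between 10 and 11.2 CPM in all 6 Control libraries. Its exons overlap those of Atg4a on the opposite strand. The 6 TraF calls whose sign differed in Control testes were tra, CG4629, CG6429, CG43112, CG43134 and lncRNA:CR43420.

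**Figure D5:**
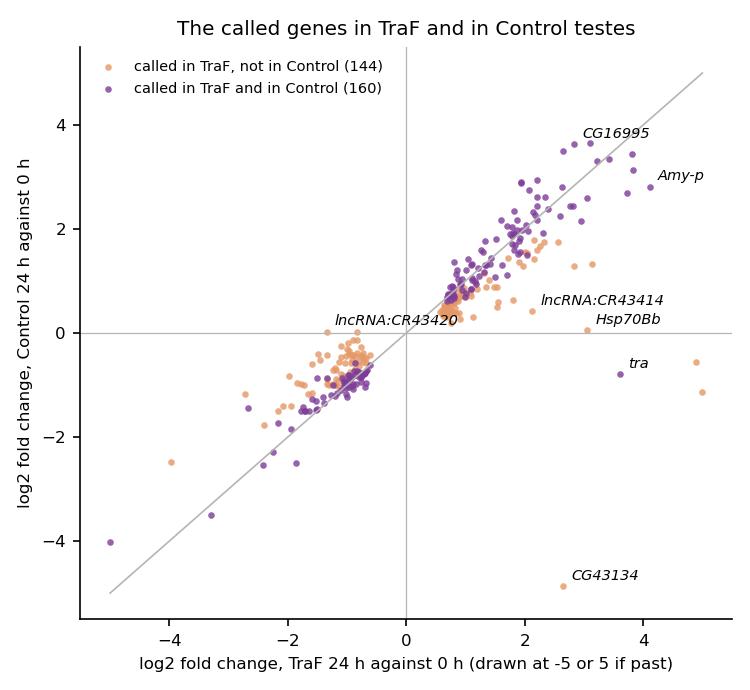
Log2 fold change from 0 to 24 h in Control testes (y axis) beside that in TraF testes (x axis) for the 304 genes called in TraF testes, purple for the 160 also called in Control testes and orange for the rest. Most points lie near the diagonal, and tra, Hsp70Bb and CG43134 lie far below it.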

How the data were processed

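Per the labels, RNA-seq libraries were made from 200 ng of total RNA with TruSeq v2 reagents and read as 76-base single ends. TopHat 1.4.1, HTSeq and build dm3 are named in the submitters' processing notes. The values the authors deposited are whole read counts for 15406 genes a library, and 5 HTSeq summary lines were dropped. No HTSeq version, annotation or strand option is given in the sources used here. Reads outside genes made up 2% to 2.46% of each testis library and ambiguous reads 3.71% to 4.3%. Symbols were found for 14732 genes. Arms, exon lengths and overlaps came from a later annotation by identifier, so no coordinates are given.

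Counts of the 12 testis libraries were fitted with edgeR 4.0.16 in R 4.3.3, with 1 mean per group, filterByExpr by group, TMM scaling, glmQLFit and the two-sided glmQLFTest. The adjusted p is a Benjamini-Hochberg value over the 12083 tested genes and has a threshold of 0.05, and fold changes use edgeR's default prior count. DESeq2 1.42.0 was an alternative. Figures used matplotlib 3.10.9 in Python 3.11.15. The pipeline was tested on simulated data. Replicates differed by far more than sampling noise, with a chi-square per gene of 37.8 to 99.5. Bounds and the counting interval cover counting error only, since reads carry no molecular identifiers.

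The compared groups, the 38 gene lists and the rule for named genes were chosen with earlier results of these data known. By the rule, the 10 largest rises and falls were taken from genes that were called and averaged 1 CPM or more at 0 or 24 h. The next 5 each with a descriptive symbol came from the same genes. Of each list the rule took up to 6 called members. In a list with none it took the 3 of lowest p, of which the text gives only some. It also took the 5 of lowest p in each direction between 12 and 24 h and in the genotype difference, whether called or not. Always named are tra, dsx, fru, Sxl, tra2, Yp1, Yp2, Yp3 and w. The 13 genes called in every leave-one-out fit, Cyp4g1, Ldh, Hsp70Ba, Hsp70Bc, Hsp83, nht and can, l(3)73Ah and the genes with another sign in Control testes were added after their values were seen. The alternatives were RLE scaling, no filter, DESeq2, a replicate block, a robust prior, 1 genotype alone and leaving out each library; a fit of the 4 compared libraries, leaving out Control libraries of other groups, and leaving out libraries on a fixed set of genes were added after the data were seen. Ovary libraries were not analysed here.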

Additional observations from a re-analysis of the deposited data

Results flagged for a closer look

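The change of tra from 0 to 24 h differed between the genotypes by the test of the difference itself, with a log2 fold change 4.41 higher in TraF than in Control testes (SE 0.252, adjusted p = 4.52e-05 by edgeR). It rose in TraF testes, where both libraries at 24 h lay above both at 0 h, and fell in Control testes.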

How the results depend on the processing

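The 304 genes called from 0 to 24 h kept their direction under RLE scaling, no filter, DESeq2, a robust prior, a replicate block, the TraF libraries alone and the 4 compared libraries alone. All these fits draw on the counts by which the genes were picked, so the kept direction is no independent check. The numbers of higher and lower calls were 338 and 299 with DESeq2, 359 and 320 in the TraF libraries alone, and 319 and 353 in the 4 compared libraries alone. They were 353 and 275 with a replicate block. Replicate numbers do not pair the samples by the labels, and the deviations of same-numbered libraries correlated at -0.000662 to 0.394 over the 15 pairs of groups, above 0.1 in 11 of them and at 0.169 to 0.284 among the TraF groups. Leaving out each compared, Control 0 h or Control 12 h library in turn gave 16 to 325 higher and 4 to 253 lower genes. For 12 against 0 h the numbers were 88 and 173 with DESeq2, 83 and 104 in the TraF libraries alone and 68 and 95 with the replicate block, and 4 to 10 and 0 to 7 on leaving out a library. For 24 against 12 h they were 4 and 2 with DESeq2 and 3 and 2 in the TraF libraries alone. For Control testes they were 33 and 9 in the Control libraries alone, 362 and 217 with the replicate block, 246 lower genes with DESeq2, and 21 to 88 and 3 to 28 on leaving out a library. The genotype difference had 3 higher genes with DESeq2 and 1 lower gene with the replicate block. The cause of these shifts was not tested.

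Of the named genes, 11 that had not been called changed sign on leaving out 1 library. The log2 fold changes then ran from -0.0081 to 1.39 for dsx, -0.30 to 0.32 for Sxl, -0.25 to 0.64 for Obp56c, -0.35 to 0.040 for Mmp2, -0.034 to 0.28 for tHMG2, -0.046 to 0.20 for Prtl99C, -0.66 to 0.12 for djl, -0.55 to 0.095 for dj, -0.42 to 0.037 for Hsc70-1, -0.46 to 0.0096 for msl-3 and -0.25 to 0.72 for Est-6. The smallest called log2 fold changes by size were 0.56 among rises and -0.61 among falls.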

Other observations

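Further genes called from 0 to 24 h in TraF testes were picked here after their values were seen, as examples outside the lists. The carboxylesterase genes alpha-Est6, alpha-Est8 and alpha-Est10, which lie in a cluster on arm 3R, all fell. Their levels went from 161.5 and 134 CPM to 90.1 and 79.3 CPM, from 38.9 and 27.4 CPM to 12.4 and 11 CPM, and from 49.1 and 36.4 CPM to 21.3 and 18.7 CPM. Cyp40, a cyclophilin gene, rose from 106 and 94.8 CPM to 229 and 201 CPM, and its exons overlap those of Or67b on the opposite strand.

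Changes went both ways among the examples that encode receptors or a synaptotagmin. GluRIIE, a glutamate receptor subunit, rose from 2.89 and 2.26 CPM to 8.92 and 9.23 CPM, with exons that overlap GluRIID and Lrrk, and the rhodopsin gene Rh5 from 1.15 and 1.29 CPM to 3.95 and 4.69 CPM. The acetylcholine receptor subunit gene nAChRbeta1 fell from 23 and 24.1 CPM to 11 and 12.3 CPM, the glutamate receptor gene GluRIA from 14 and 18.7 CPM to 6.83 and 7.82 CPM, and Syt4, a synaptotagmin gene, from 18.3 and 17.2 CPM to 6.71 and 7.27 CPM. Control testes had the same sign for each of these genes. No list of such genes was tested, and the summed neuron markers are given in the report.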
